A study of Mus musculus with 4 samples.

Results

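Basic helix-loop-helix (bHLH) transcription factors of cell lineages were examined in mouse embryonic stem cells after knockdown of Kdm2b. The list held 38 genes, chosen by family and lineage role with earlier results of these data known. Of these, 37 were measured among 19938 genes, each by a single probe set that the platform annotation gives 1 symbol, and Bhlhe22 was not analysed here. The knockdown group was 2 arrays of E14 cells, a line from an inbred 129 mouse, with Kdm2b knocked down, and the control group was 2 arrays of control E14 cells. Culture was on gelatin for both groups, with leukemia inhibitory factor at 1000 units/ml and 15% serum. Both were infected with lentiviral vectors at a multiplicity of infection of 10 and put under puromycin at 2 µg/ml after 48 h, so the RNA came from pools of selected cells. The sources used here give neither the knockdown sequence nor the content of the control vector. The labels do not say whether replicates were separate cultures, so the spread behind the p-values is that of these arrays and may be technical.

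bHLH factors bind DNA at E-boxes, short sites with the letters CANNTG, as dimers held by the helix-loop-helix. Most lineage members pair with a broadly expressed E protein and switch on genes of nerve, muscle, mesoderm, gland or blood. Id proteins lack a DNA-binding region and hold E proteins in inactive dimers, and Hes and Hey proteins are repressors downstream of Notch. Kdm2b, a histone demethylase with a zinc finger for unmethylated CpG, belongs to a variant of Polycomb repressive complex 1. The series asks whether Kdm2b keeps the stem cell state by bringing that complex to CpG islands of lineage genes.

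Promoter windows of RefSeq (build GRCm38.p6, from 250 bases before to 50 after the start of the gene, 300 bases in all) were matched for 29 of the 38 genes, and 9 had no entry, among them Tcf15 and Bhlhe40. Windows are shown for the 3 genes past the test's threshold that had one, because Kdm2b reads CpG, and for Neurod6 as a contrast poor in CpG. Each runs 5′ to 3′ on the strand of the gene, with every CpG in capitals. They lie at chr6:145865371-145865670 (minus strand, Bhlhe41), chr12:33957421-33957720 (plus strand, Twist1), chr10:62132840-62133139 (plus strand, Neurog3) and chr6:55681214-55681513 (minus strand, Neurod6).
Bhlhe41: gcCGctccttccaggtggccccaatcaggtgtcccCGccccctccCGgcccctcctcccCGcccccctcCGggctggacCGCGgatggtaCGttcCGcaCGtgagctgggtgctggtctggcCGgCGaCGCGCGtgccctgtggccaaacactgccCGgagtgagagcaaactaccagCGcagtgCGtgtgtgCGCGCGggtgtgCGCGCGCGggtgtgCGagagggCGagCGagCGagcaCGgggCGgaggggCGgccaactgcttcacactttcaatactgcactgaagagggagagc
Twist1: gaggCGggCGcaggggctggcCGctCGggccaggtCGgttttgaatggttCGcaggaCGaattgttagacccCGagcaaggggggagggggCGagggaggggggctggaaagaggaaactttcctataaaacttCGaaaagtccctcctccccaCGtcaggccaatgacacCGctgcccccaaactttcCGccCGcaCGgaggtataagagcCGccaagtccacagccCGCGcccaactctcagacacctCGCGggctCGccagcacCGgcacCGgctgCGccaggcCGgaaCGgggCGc
Neurog3: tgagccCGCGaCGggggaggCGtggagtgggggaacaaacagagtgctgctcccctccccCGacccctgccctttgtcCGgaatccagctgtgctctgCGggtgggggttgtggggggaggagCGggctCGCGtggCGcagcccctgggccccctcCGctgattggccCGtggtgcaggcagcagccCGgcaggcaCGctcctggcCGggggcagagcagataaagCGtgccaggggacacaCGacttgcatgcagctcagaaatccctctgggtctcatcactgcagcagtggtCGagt
Neurod6: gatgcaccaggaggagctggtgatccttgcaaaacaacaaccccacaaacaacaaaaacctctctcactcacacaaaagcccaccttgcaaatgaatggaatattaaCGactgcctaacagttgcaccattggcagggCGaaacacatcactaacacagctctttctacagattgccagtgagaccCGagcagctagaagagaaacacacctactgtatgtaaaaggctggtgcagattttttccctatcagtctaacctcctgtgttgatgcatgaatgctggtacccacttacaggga
The Bhlhe41 window held 32 CpG, more than 90.5% of the 32851 windows of the table. The Twist1 window held 27 and the Neurog3 window 19, while the Neurod6 window held 3, more than 23.3% of windows. The letters CANNTG, which read the same on both strands, occur in 72.3% of all windows and in 21 of the 29 members' windows. The E-box CACGTG, one form of CANNTG, occurs in 7.15% of all windows and in those of 2 members, Bhlhe41 (bases 98 to 103 of the sequence above) and Atoh8.

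The values are log2 expression per probe set. Array medians ran from 8.49 to 8.55, and arrays of 1 group correlated at r = 0.9963 or more across probe sets. Kdm2b stood at 9.20 and 9.19 in knockdown cells, against 10.74 and 10.64 in control cells (log2 fold change -1.50, adjusted p = 0.0039, limma). The cells carried the markers of their label. All 8 stem cell markers, Pou5f1, Sox2, Nanog, Zfp42, Esrrb, Utf1, Dppa5a and Tdgf1, had means from 12.17 to 14.13, above the array median, and 0 of the 8 passed limma's test in either direction (1 higher and 1 lower at an unadjusted p under 0.05). Probe sets differ in how brightly they respond, so levels of different genes are not ranked here.

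Of the 37 genes measured, 24 had a mean below the array median of 8.52 and 13 above it, and the means ran from 4.50 (Neurod6) to 10.85 (Tcf15). After knockdown 3 of the 37 were higher, Tcf15, Twist1 and Neurog3, 2 were lower, Bhlhe40 and Bhlhe41, and 32 did not pass (limma, adjusted p under 0.05 over all 19938 genes). The 3 are 8.11% of the members, where 5.00% of all genes were higher, and the 2 are 5.41%, where 7.19% of all genes were lower. Together the share was 13.5%, near the 12.2% of all genes, so the counts show nothing particular to the list. At an unadjusted p under 0.05, 8 members were higher (21.6%, against 15.1% of all genes) and 2 lower (5.41%, against 14.7%). Among the 24 members below the array median, 16.7% were higher and 4.17% lower at that p, against 12.7% and 5.38% of all such genes. Among the 13 above it, 30.8% were higher and 7.69% lower, against 16.9% and 21.4% of all such genes. The median log2 fold change was 0.07 over the members and 0.03 over all genes. The members' median was 0.12 without control replicate 1, 0.04 without control replicate 2, and 0.025 after median centring of the arrays, where that of all genes was -0.01. Both knockdown arrays lay above both control arrays for 16 members (43.2%, against 33.8% of all genes) and below them for 5 (13.5%, against 25.0%). These shares vary with level. Of the 24 members below the array median, 37.5% lay above and 8.33% below, against 35.9% and 12.2% of all such genes. Of the 13 above it, 53.8% lay above and 23.1% below, against 32.2% and 34.4% of all such genes. Of the 24 members below the array median 1 was higher and 1 lower, where 2.73% and 2.31% of all such genes were. Of the 13 above it 2 were higher and 1 lower, where 6.65% and 10.8% of all such genes were.

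**Figure D1:**
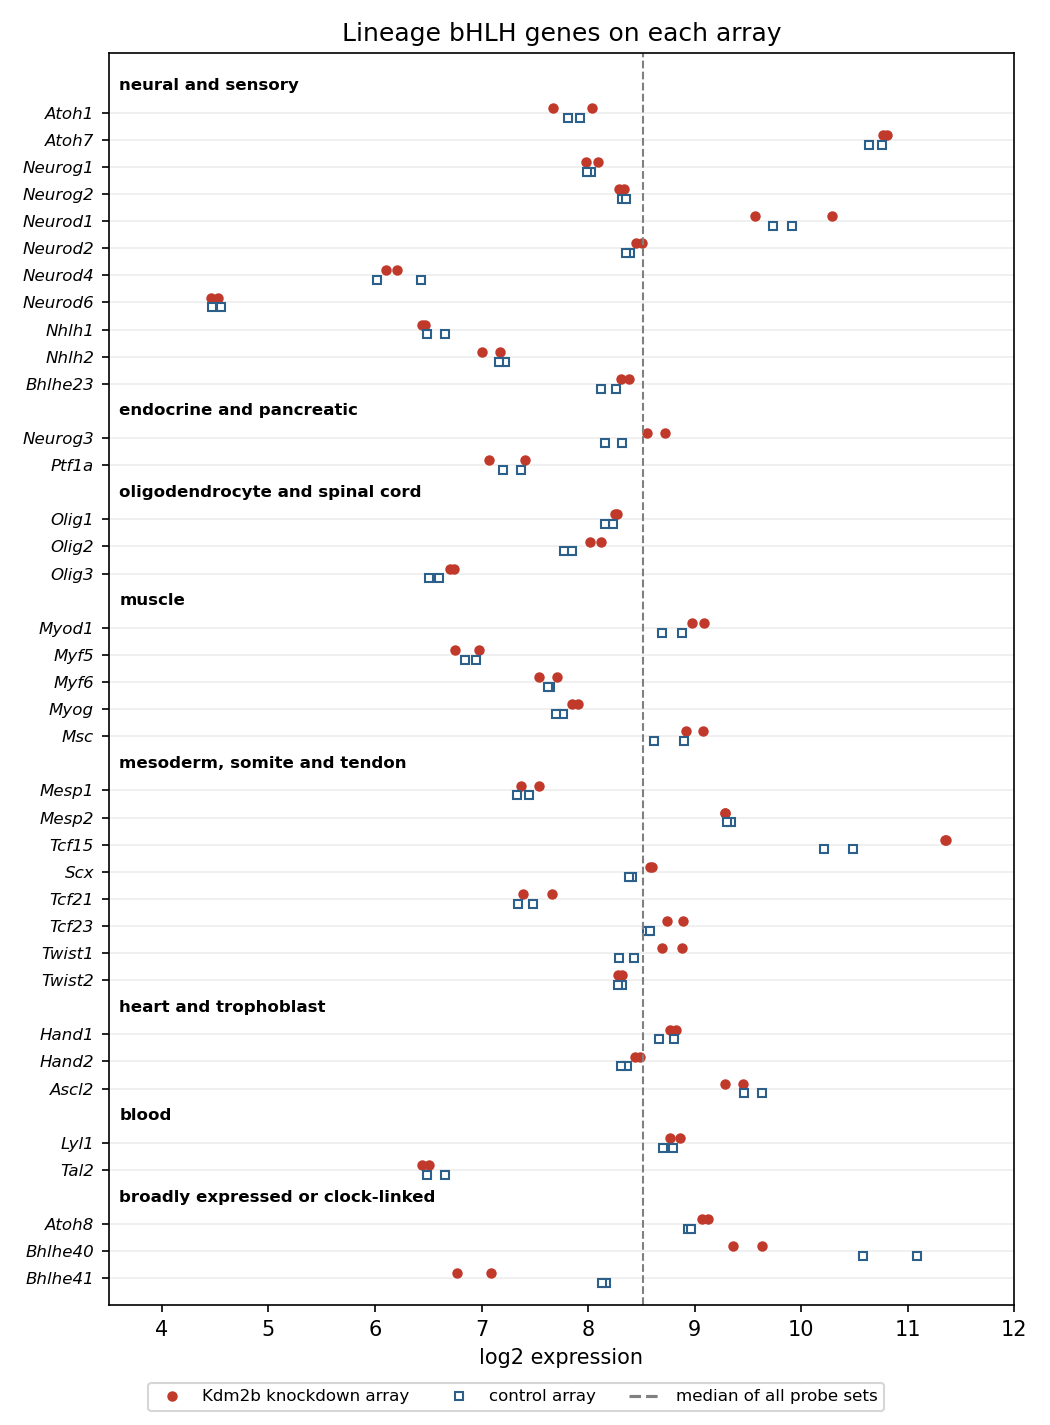
Log2 expression of the 37 measured lineage bHLH genes, 1 row a gene, grouped by lineage role. Filled red circles are the 2 Kdm2b knockdown arrays, open blue squares the 2 control arrays, and the dashed line is the median of all probe sets (8.52). Of the rows, 24 have their mean left of the line, and Tcf15, Bhlhe40 and Bhlhe41 show the widest gaps between the groups.

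Tcf15, also called paraxis, is a factor of somites and their epithelial form, and in stem cells its protein is known as a partner held back by Id proteins. It read 11.35 and 11.36 in knockdown cells, against 10.21 and 10.49 in control cells. The knockdown arrays nearly coincided, and both lay above both control arrays. Tcf15 averaged 11.355 ± 0.0071 in knockdown and 10.35 ± 0.20 in control cells (SD, n = 2 each), so it rose by 1.00 on the log2 scale, or 2.01-fold (SE 0.10, adjusted p = 0.00714, limma). The change was between 0.865 and 1.145 with any 1 array left out. In bulk RNA, here and below, a change in how many cells express a gene and one in RNA per cell cannot be told apart.

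Twist1, a factor of mesenchyme and the neural crest, rose less. It read 8.88 and 8.69 in knockdown cells, against 8.29 and 8.43 in control cells, so the groups were apart but lay on either side of the array median. The log2 fold change was 0.42 (SE 0.091, adjusted p = 0.0371, limma). Its near relative Twist2 read 8.28 and 8.32 in knockdown cells, against 8.32 and 8.28 in control cells. The difference was 0.00 on the log2 scale, with a 95% interval from -0.15 to 0.15. Of 9 fibroblast and feeder cell markers, 0 were higher and 1, Pdgfrb, was lower (log2 fold change -0.52, adjusted p = 0.0113, limma). The share lower was 11.1% of these markers, against 7.19% of all genes. The summed linear values of those markers were 3535 and 3522 in knockdown cells, against 3638 and 3650 in control cells. Without Pdgfrb the sums were 3131 and 3094 in knockdown cells, against 3029 and 3066 in control cells. The log2 fold change was above 0 for 6 of the 9 (66.7%, against 56.9% of all genes), and its median over the list was 0.065. Col1a1, Col3a1 and Postn had both knockdown arrays above both control arrays without passing the test. They are 33.3% of the list, near the 33.8% of all genes. Both knockdown arrays lay below both control arrays for 22.2% of the list, against 25.0% of all genes.

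Neurog3 starts the endocrine cells of the pancreas and gut. It read 8.72 and 8.55 in knockdown cells, against 8.32 and 8.16 in control cells. Its groups did not overlap, and the log2 fold change was 0.395 (SE 0.090, adjusted p = 0.0440, limma). After quantile normalization its adjusted p was 0.0521, so its call was lost. Ptf1a, a factor of the pancreas and of inhibitory neurons, read 7.41 and 7.07 in knockdown cells, against 7.20 and 7.37 in control cells, and the groups overlapped.

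**Figure D2:**
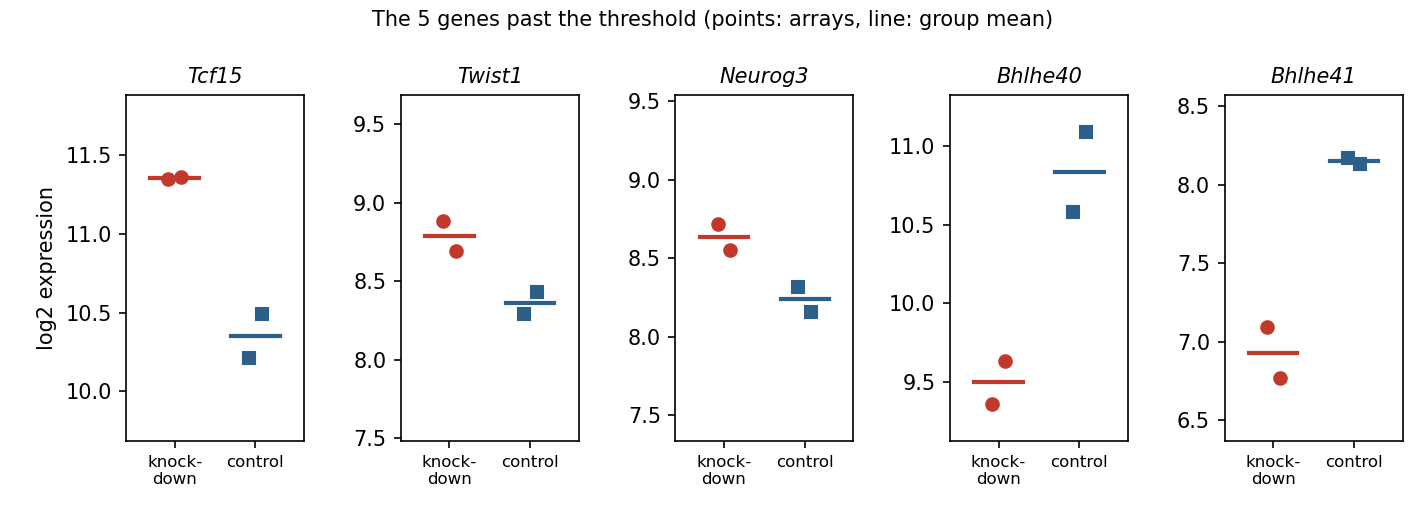
Log2 expression of the 5 members past the threshold, a panel each, with knockdown arrays (red circles) left of control arrays (blue squares) and a line at each group mean. All panels span the same number of log2 units. Tcf15, Twist1 and Neurog3 were higher and Bhlhe40 and Bhlhe41 lower after knockdown, with no overlap in any panel. The 5 were picked by the test on these same arrays, so the lack of overlap adds no support. Both knockdown arrays lay above both control arrays for 33.8% of all genes and below them for 25.0%.

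Bhlhe40 and Bhlhe41, also called Dec1 and Dec2, are repressors that bind CACGTG and dampen the circadian clock. Both were lower after knockdown by more than 2-fold. Bhlhe40 read 9.36 and 9.63 in knockdown cells, against 10.58 and 11.09 in control cells. Its control arrays differed by 0.51, the widest gap between control replicates among the members, yet the groups stayed apart. It fell by 1.34 on the log2 scale, a level 2.53-fold lower (SE 0.18, adjusted p = 0.0122, limma), and its log2 fold change lay between -1.595 and -1.085 with any 1 array left out. Bhlhe41 read 7.09 and 6.77 in knockdown cells, against 8.17 and 8.13 in control cells. It lay below the array median on every array and fell by 1.22, a level 2.33-fold lower (SE 0.11, adjusted p = 0.00592, limma). Atoh8, a broadly expressed relative of the proneural genes, read 9.13 and 9.07 in knockdown cells, against 8.94 and 8.97 in control cells, a log2 fold change of 0.145 that did not pass (adjusted p = 0.187, limma).

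Of 10 genes of the circadian clock, 2 were lower (20.0%, against 7.19% of all genes), 0 higher and 8 neither, with a median log2 fold change of -0.105. All 10 lie above the array median, where 10.8% of all genes were lower. At an unadjusted p under 0.05, 3 were higher and 5 lower (30% and 50%, against 16.9% and 21.4% of all genes above the array median, limma). Per3, a period gene, read 9.10 and 9.27 in knockdown cells, against 9.73 and 9.65 in control cells (log2 fold change -0.50, adjusted p = 0.0178, limma). Nr1d2, a nuclear receptor that represses clock genes, read 10.81 and 10.72 in knockdown cells, against 11.36 and 11.12 in control cells (-0.475, adjusted p = 0.0314, limma). The others did not pass. Per2 had a log2 fold change of 0.305 and Nr1d1 of -0.525, so the values ran both ways.

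The neural and sensory factors did not pass limma's test. Of 12 listed, 11 were measured, and 0 had an adjusted or an unadjusted p under 0.05. The log2 fold change was positive for 5 (45.5%) and negative for 6, and the median was -0.01. Of all genes, 15.1% were higher and 14.7% lower at an unadjusted p under 0.05 (limma), and 56.9% had a positive change. Of the 11, 9 lie below the array median, where these shares of all genes were 12.7%, 5.38% and 68.1%. For Atoh7, which specifies retinal ganglion cells, the arrays read 10.81 and 10.77 in knockdown cells, against 10.76 and 10.64 in control cells. Neurod1, a factor of neurons and endocrine cells, read 10.29 and 9.57 in knockdown cells, against 9.74 and 9.91 in control cells. The knockdown arrays of Neurod1 thus lay on either side of the control arrays, 0.72 apart, the widest gap between knockdown replicates among the members. Its log2 fold change of 0.105 became -0.255 when knockdown replicate 1 was left out and 0.465 when replicate 2 was.

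The proneural factors Neurog1 and Neurog2 stood below the array median with changes of 0.025 and -0.025. Atoh1, needed for hair cells and cerebellar granule cells, had a change of -0.01. Log2 fold changes of the later neuronal factors Neurod2, Neurod4 and Neurod6 were 0.105, -0.07 and -0.015, those of Nhlh1 and Nhlh2 were -0.12 and -0.105 (-0.205 to -0.035 and -0.19 to -0.02 with 1 array left out), and that of Bhlhe23, a factor of retina and brain, was 0.155. Genes linked to proneural factors and neuron markers were also read. Of 12 genes linked to proneural factors 0 were higher and 2 lower (16.7%, against 7.19% of all genes). Of the 12, 9 lie above the array median, where 10.8% of all genes were lower. At an unadjusted p under 0.05, 2 were higher and 4 lower (16.7% and 33.3%, against 15.1% and 14.7% of all genes, limma). Of all genes above the array median, 16.9% were higher and 21.4% lower at that p. The 2 that passed were Mfng (-0.515, adjusted p = 0.0101, limma), a modifier of Notch receptors, and Cbfa2t2 (-0.325, adjusted p = 0.0489, limma), a corepressor. Dll1, a Notch ligand, read 9.14 and 8.39 in knockdown cells, against 9.40 and 9.73 in control cells, and its change of -0.80, the widest of these genes, did not pass (adjusted p = 0.0913, limma). Insm1, a zinc finger factor of neural and endocrine precursors, had a change of -0.36 that did not pass either (adjusted p = 0.0839, limma). Of 7 neuron markers 0 were higher and 0 lower by limma (1 and 2 at an unadjusted p under 0.05), with log2 fold changes from -0.295 (Rbfox3) to 0.40 (Elavl3).

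The Olig genes specify motor neurons, oligodendrocytes and dorsal spinal cord neurons. All 3 had both knockdown arrays above both control arrays, as had 35.9% of all genes below the array median, where the 3 lie. Of the 3, 0 passed, and 2 were higher at an unadjusted p under 0.05 (66.7%, limma). That share was 15.1% of all genes and 12.7% of those below the array median. Olig2 read 8.12 and 8.02 in knockdown cells, against 7.85 and 7.77 in control cells, so it differed by 0.26 (SE 0.070, adjusted p = 0.0674, limma). Olig3 had a change of 0.165 and Olig1 of 0.065. Of 5 other oligodendrocyte genes measured, 0 passed, and 2 were higher at an unadjusted p under 0.05 (40%, against 15.1% of all genes, limma). Pdgfra, a receptor of oligodendrocyte precursors that primitive endoderm also carries, read 9.45 and 10.69 in knockdown cells, against 8.76 and 8.33 in control cells. Its groups were apart, its knockdown arrays differed by more than 1 unit, and its change of 1.525 did not pass (SE 0.39, adjusted p = 0.0578, limma).

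Among the muscle factors, Myod1, which turns cells to skeletal muscle, read 9.09 and 8.98 in knockdown cells, against 8.88 and 8.69 in control cells. Its groups did not overlap, with knockdown above control as for 33.8% of all genes. The Myod1 change of 0.25 did not pass (SE 0.087, adjusted p = 0.122, limma). The repressor gene Msc, active in muscle precursors of the face, had a change of 0.24 (0.10 without control replicate 2 and 0.38 without control replicate 1), and Myog, a factor of muscle differentiation, one of 0.15. Myf5 and Myf6, which act with Myod1, had changes of -0.03 and -0.005 and overlapping groups. Of 8 skeletal muscle markers 0 were higher and 0 lower by limma (1 higher at an unadjusted p under 0.05), with log2 fold changes from -0.085 (Myh3) to 0.215 (Mylpf).

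Besides Tcf15 and Twist1, the mesoderm, somite and tendon group held 6 genes that did not pass. Scx, a factor of tendon precursors, read 8.60 and 8.58 in knockdown cells, against 8.41 and 8.38 in control cells (log2 fold change 0.195, SE 0.060, adjusted p = 0.0923, limma). Tcf23, known from the uterus, read 8.74 and 8.89 in knockdown cells, against 8.55 and 8.58 in control cells (0.25, SE 0.074, adjusted p = 0.0839, limma). Both had their 2 knockdown arrays above their 2 control arrays, as had 33.8% of all genes. Mesp1, an early factor of heart mesoderm, had a change of 0.065, and Mesp2, a factor of somite borders, one of -0.03. Tcf21, a factor of epicardium and visceral mesenchyme, had a change of 0.115 with overlapping groups. Of 9 other somite and mesoderm genes 0 passed limma's test (2 higher and 1 lower at an unadjusted p under 0.05). Of 9 tendon and mesenchyme genes 0 passed (1 higher at an unadjusted p under 0.05).

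Hand1 and Hand2 act in the heart, and Hand1 also in trophoblast. Their log2 fold changes were 0.06 and 0.125. Ascl2, a trophoblast factor, read 9.45 and 9.29 in knockdown cells, against 9.46 and 9.63 in control cells. Its groups were 0.01 apart at their nearest, and the change of -0.175 did not pass (SE 0.090, adjusted p = 0.255, limma). With control replicate 2 left out that change was -0.09, and with knockdown replicate 2 left out -0.095. Of 6 other heart and trophoblast genes measured, 1 was lower, Myl7, an atrial myosin light chain gene (-0.585, adjusted p = 0.0123, limma), and 0 were higher (1 at an unadjusted p under 0.05). The share lower was 16.7%, against 7.19% of all genes. The blood factor Lyl1 had a change of 0.065, and Tal2, named from a leukaemia and active in the midbrain, one of -0.10, both with overlapping groups.

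**Figure D3:**
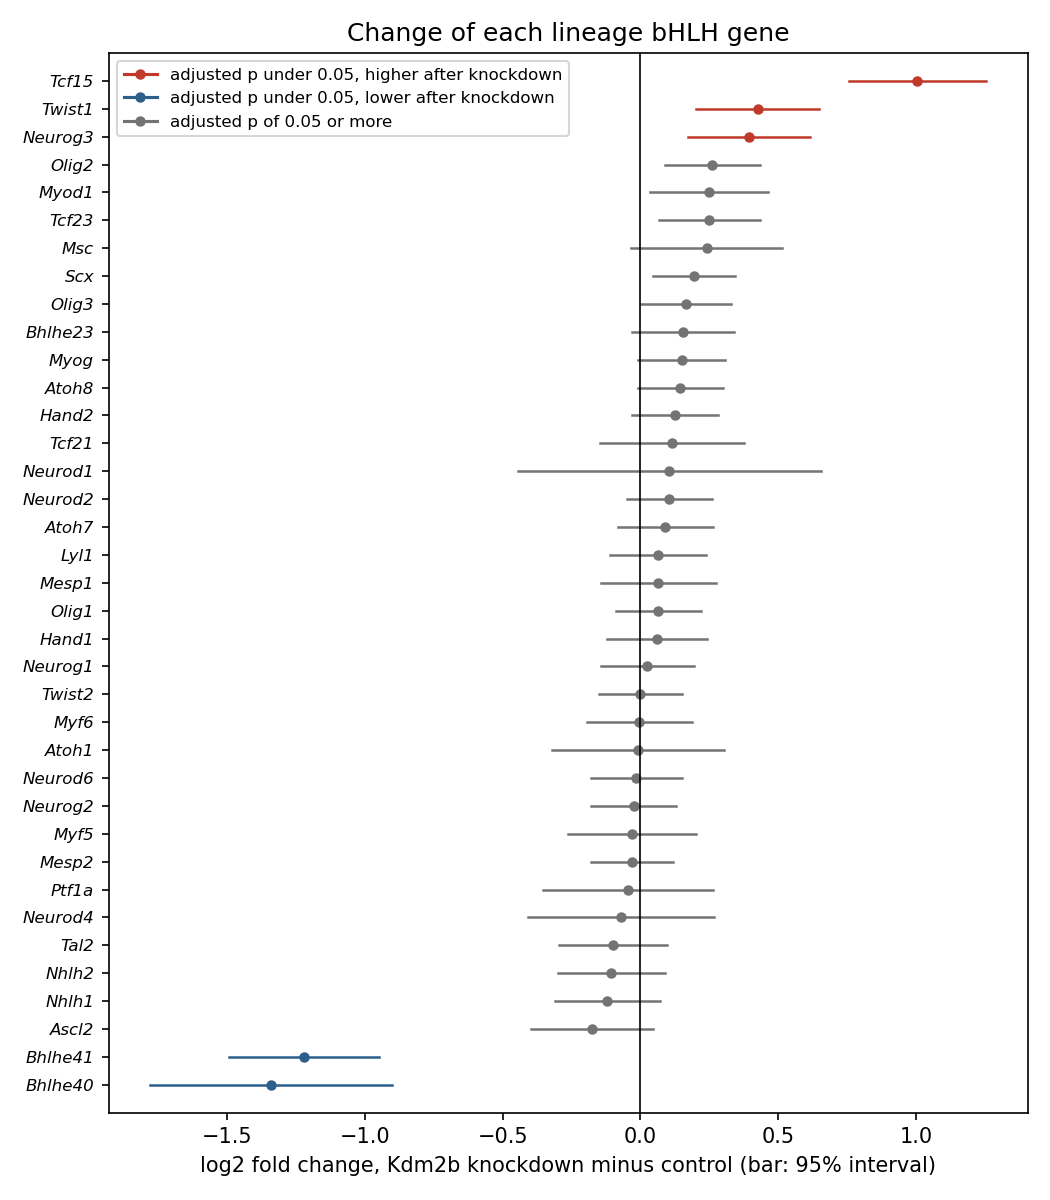
Log2 fold change (Kdm2b knockdown minus control) of the 37 measured lineage bHLH genes, ordered by size, with bars for limma's 95% interval. Red marks adjusted p under 0.05 and higher, blue adjusted p under 0.05 and lower, grey the 32 others, whose values run from -0.175 (Ascl2) to 0.26 (Olig2).

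The precision for the members that did not pass can be read from their intervals. For 31 of the 32, the 95% interval of the log2 fold change lay within a 1.5-fold change in either direction, and Neurod1 was the exception (-0.44 to 0.65). These intervals are limma's, from 2 arrays a group, and refer to the log2 scale of the probe sets, not to amounts of RNA. Of the 32, 22 had a mean below the array median, so low signal limits what their intervals say of the RNA.

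The partners of the lineage factors were read in the same fit. The E proteins Tcf3, Tcf4 and Tcf12 were all above the array median, and 0 of the 3 passed (1 higher and 1 lower at an unadjusted p under 0.05, limma). Tcf4 had a log2 fold change of -0.39 (adjusted p = 0.0579, limma) and Tcf12 of 0.36 (adjusted p = 0.0922, limma). Of the 4 Id genes, 1 was higher, Id1 (25%, against 5.00% of all genes). It read 10.93 and 11.16 in knockdown cells, against 10.39 and 10.32 in control cells (0.69, SE 0.092, adjusted p = 0.0122, limma). Id2 read 11.73 and 11.28 in knockdown cells, against 12.23 and 11.95 in control cells, and its change of -0.585 did not pass (adjusted p = 0.0754, limma). Id3 (0.215) and Id4 (-0.25) did not pass either.

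Of 10 Hes and Hey genes, 0 were higher and 1 lower (10%, against 7.19% of all genes). At an unadjusted p under 0.05, 2 were higher and 1 lower (20% and 10%, against 15.1% and 14.7% of all genes, limma). The lower one was Hey1, a Notch target of vessels and heart, with 9.05 and 8.90 in knockdown cells, against 9.27 and 9.43 in control cells (-0.375, adjusted p = 0.0463, limma). Hes1, a repressor downstream of Notch, had a change of 0.16 and Hes6, which opposes Hes1, one of 0.32, and neither passed. Of 12 other lineage bHLH genes measured, 0 were higher and 0 lower by limma (1 higher at an unadjusted p under 0.05), with changes from -0.065 (Sohlh2) to 0.27 (Ascl4).

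**Figure D4:**
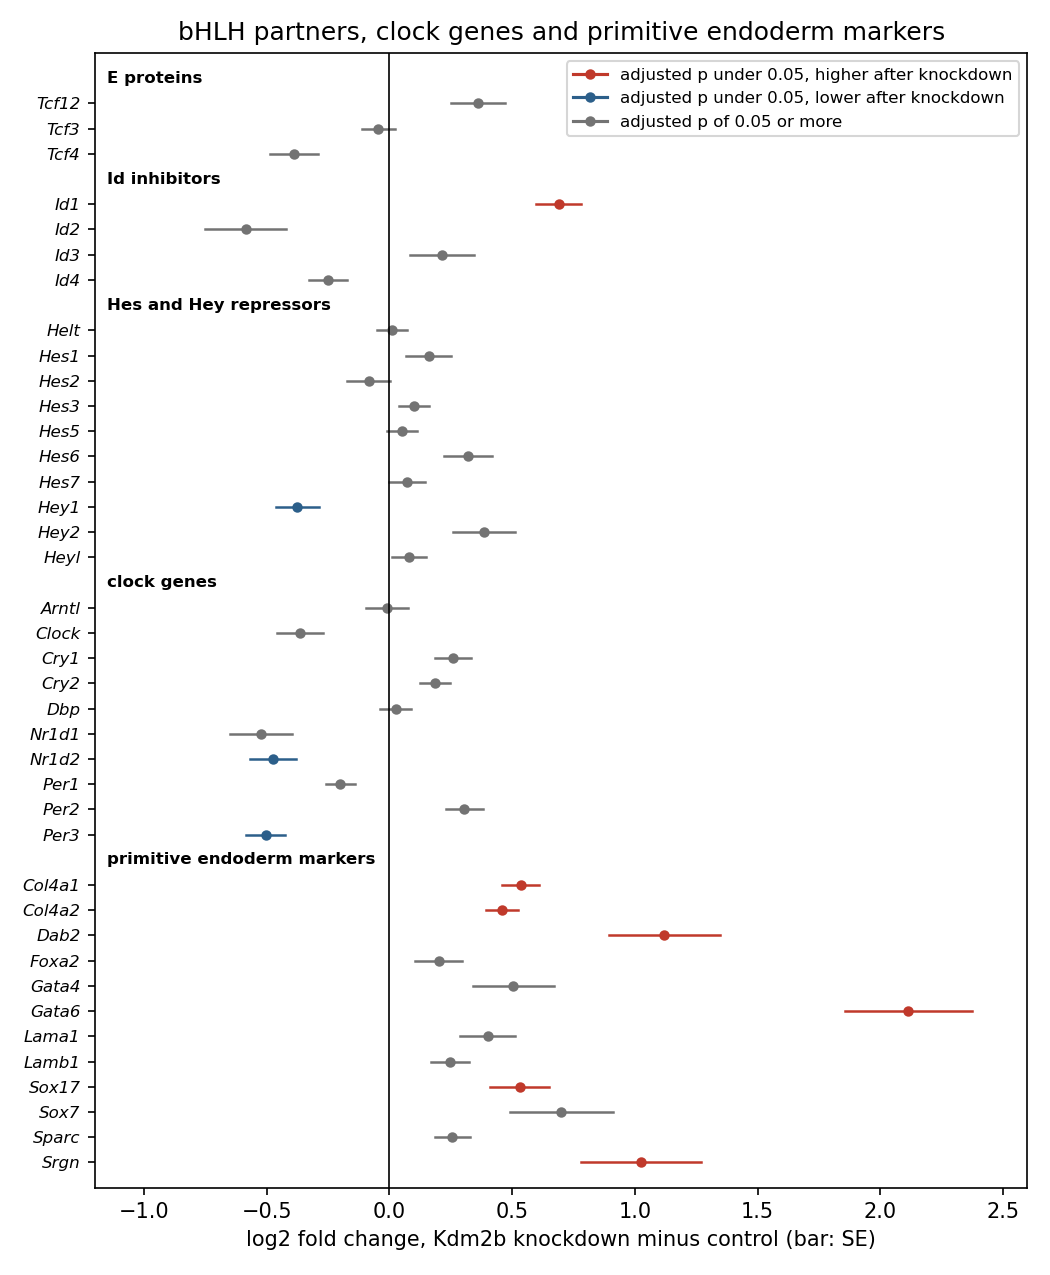
Log2 fold change (Kdm2b knockdown minus control) of bHLH partners, clock genes and primitive endoderm markers, with bars for the SE. Id1 and 6 of the primitive endoderm markers were higher, Hey1, Nr1d2 and Per3 were lower, and the grey genes did not pass.

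Markers of primitive endoderm, an extraembryonic lineage that arises in such cultures, moved with the groups. Of 12 measured, 6 were higher (50%, against 5.00% of all genes) and 0 lower. All 12 had both knockdown arrays above both control arrays, against 33.8% of all genes. Their median log2 fold change was 0.52. Their summed linear values were 28141 and 33480 in knockdown cells, against 21382 and 18419 in control cells. Gata6, the regulator of this lineage, read 11.74 and 12.60 in knockdown cells, against 10.07 and 10.04 in control cells. The gap between the 2 knockdown arrays was narrowest for Col4a2, which read 9.15 and 9.16, and widest for Gata6, at 0.86. Control arrays varied as well, from a gap of 0.03 for Gata6 to readings of 9.97 and 9.23 for Dab2 and 11.66 and 10.85 for Srgn. For Tcf15 the gap was 0.01 between the knockdown arrays and 0.28 between the control arrays. The part of these cells in the changes of Tcf15, Twist1, Neurog3, Bhlhe40 and Bhlhe41 was not tested.

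Promoter CpG was set beside the changes as a description. Windows with a CpG observed-to-expected ratio over 0.6 and a GC content over 50%, here called CpG-rich, made up 13 of the 29 members' windows (44.8%) and 33.3% of all windows. Of the 13 members with such a window, 2 passed, Bhlhe41 downward and Twist1 upward, and the median log2 fold change was 0.105. Of the 16 others, 1 passed, Neurog3, and the median was 0.025. Over all genes tested with a window, 15.1% of those with a CpG-rich window passed, against 9.70% of the others. Their median log2 fold changes were 0.005 and 0.04, in the opposite order to those of the members. The members' median level was 8.30 with a CpG-rich window and 7.445 with another. Calls vary with level, since 5.03% of all genes below the array median passed and 17.4% of those above it. Neurog1, with as many CpG in its window as Bhlhe41 (32), had a change of 0.025, and Twist2, with 25, one of 0.00. Genes with many CpG in the window thus lay at both ends of the range and in the middle.

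**Figure D5:**
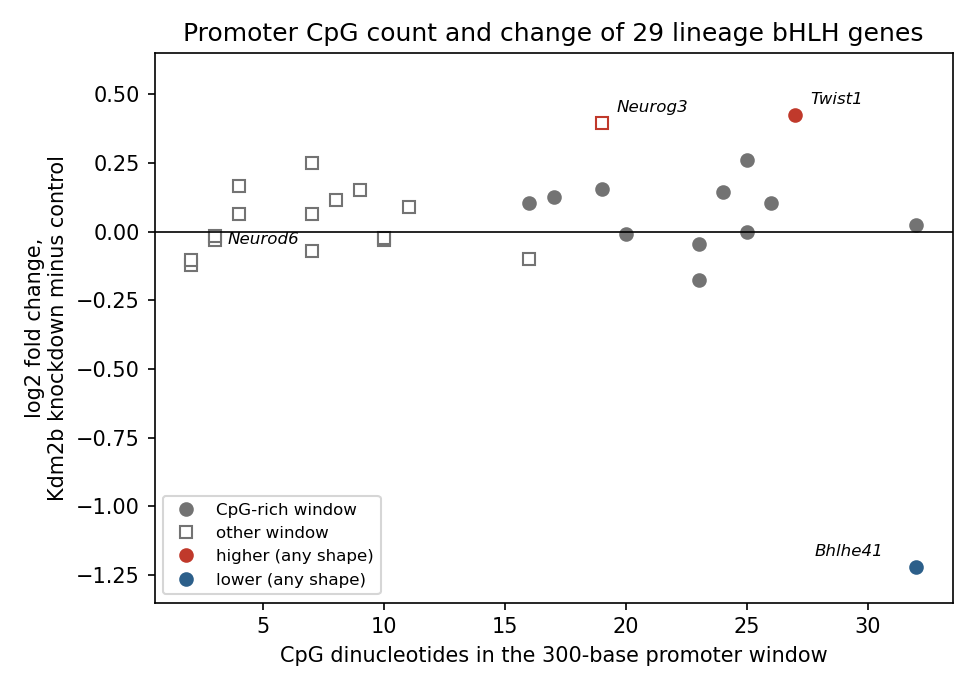
CpG dinucleotides in the 300-base promoter window (x axis) and log2 fold change, Kdm2b knockdown minus control (y axis), of the 29 lineage bHLH genes with a window. Circles are CpG-rich windows and open squares the others. For Neurod4, which has 2 windows, the one with 7 CpG is drawn. Bhlhe41 and Neurog1 share the highest count, 32, at -1.22 and 0.025.

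The calls rest on all 4 arrays. With any 1 array left out, limma called 0 of the 19938 genes, though 3495 to 4215 genes had an unadjusted p under 0.05 (5941 with all 4 arrays). Such fits have 1 residual degree of freedom. The adjusted p of the 5 members was then 0.196 to 0.308, and each kept its direction, with a log2 fold change within 1.5 times of that from all 4 arrays. Of the 32 other members, 24 moved by more than 1.5 times or changed sign with 1 array left out.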

How the data were processed

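The deposited table holds log2 expression for 35557 probe sets on each of 4 Affymetrix MoGene 1.0 ST arrays. Per the submitters' processing notes, the authors made it with Affymetrix Expression Console; the sources used here do not give the version, the background step or the summary method. The log2 scale was read from the values (3.12 to 14.74), which are not centred per gene, and how arrays were scaled to each other is unknown. Groups were taken from the sample titles. Probe sets with exactly 1 symbol in the platform annotation were used (21789), and per gene the one with the highest mean over the 4 arrays. The test was that of limma 3.58.1 (R 4.3.3; lmFit and eBayes, two-sided) with no term besides the group, with p-values adjusted by Benjamini-Hochberg over 19938 genes and a threshold of 0.05. The procedure was tested on simulated data. Every member is named, and of the other lists up to 4 genes past the threshold; further values were added after they were seen. Members and lists were chosen with earlier results of these data known. The number of arrays limits the precision. Dim genes are those with a mean of 8.52 or less. RefSeq tables (GRCm38.p6) gave promoter windows and gene neighbours.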

Additional observations from a re-analysis of the deposited data

How the results depend on the processing

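With 2 arrays a group, calls depend on the residual degrees of freedom. With any 1 array left out limma called 0 members higher, 0 members lower, 0 genes higher and 0 genes lower, and Kdm2b kept a log2 fold change of -1.545 to -1.445 (adjusted p from 0.196 to 0.258). With the replicate number as a block (replicate block), 0 members and 0 genes passed in either direction, with 5411 genes at an unadjusted p under 0.05, and Kdm2b stood at -1.495 (adjusted p = 0.127). The labels do not say whether arrays with the same replicate number belong together. Across genes the difference between replicates 1 and 2 correlated at 0.095 between the groups, which does not settle it. At a threshold of 0.1, 6 members were higher, with Olig2, Scx and Tcf23 added, and 1920 genes were higher and 2236 lower. With dim genes removed 13 members were left, of which 2 were higher and 1 lower. The members' median log2 fold change was 0.105 with dim genes removed, 0.025 after median centring, and 0.04 to 0.12 with an array left out. After quantile normalization Neurog3 lost its call (adjusted p = 0.0521).

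Members near 0 changed sign. Neurog1 (0.025) was -0.0325 after quantile normalization and -0.015 with centred arrays. With an array left out the range was -0.03 to 0.08 for Neurog1, -0.195 to 0.175 for Atoh1, -0.275 to 0.135 for Neurod4, -0.055 to 0.025 for Neurod6, -0.255 to 0.465 for Neurod1, -0.215 to 0.125 for Ptf1a, -0.145 to 0.085 for Myf5, -0.09 to 0.08 for Myf6, -0.02 to 0.15 for Mesp1, -0.02 to 0.25 for Tcf21 and -0.01 to 0.13 for Hand1. The cause was not tested. An intensity trend in the prior changed no call or direction of a member. Neither did averaging the probe sets of a gene or testing every probe set on its own. Each member has a single probe set, so those settings could not move its fold change, only its p-value.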

Other observations

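The genes next to the 5 members past the threshold were read, with the 2 nearest tested genes on either side in the RefSeq table. Of these 20 neighbours, 1 was higher, 1 lower and 18 neither. The share that passed, 10.0%, was near the 12.2% of all genes, so the count shows nothing particular to the neighbours. Srxn1, an antioxidant reductase gene next to Tcf15, read 10.39 and 10.52 in knockdown cells, against 9.72 and 9.90 in control cells (log2 fold change 0.645, SE 0.088, adjusted p = 0.0128, limma). Csnk2a1, on the other side of Tcf15, had a change of -0.07. Tacr2, the second gene after Neurog3, was lower (-0.55, adjusted p = 0.0120, limma). Twist1 lies next to the bHLH gene Ferd3l, which had a change of -0.03, and to Hdac9, which had one of 0.14, and neither passed. The genes on either side of Bhlhe40, Sumf1 and Edem1, had changes of -0.21 and 0.005, and those on either side of Bhlhe41, Rassf8 and Sspn, of -0.045 and 0.07.

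Among the members, 3 couples lie side by side in the same table, and none of the 6 genes passed. Myf5 and Myf6 had log2 fold changes of -0.03 and -0.005, Mesp1 and Mesp2 of 0.065 and -0.03, and Olig1 and Olig2 of 0.065 and 0.26.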
